A study of Bos grunniens with 18 samples.

Results

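The corpus and the caput of the yak epididymis were compared peak by peak for N6-methyladenosine (m6A). All 14061 peaks of the authors' comparison of these regions were taken, which lay in 7973 genes. Over the 3 comparisons of the study the authors listed 41804 peaks. The samples were epididymis tissue of sexually mature yaks (Bos grunniens), for which the labels state 6 healthy male animals aged 4 years. The groups were input caput, RIP caput, input corpus and RIP corpus, with 3 libraries each, or 12 of the 18 libraries of the study. RIP libraries hold mRNA fragments pulled down with an m6A antibody, and input libraries hold the fragments before the pull-down. No group carried a treatment or an altered gene. The labels do not tie animals to libraries, so libraries of 1 group may differ by technical spread only.

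N6-methyladenosine is a methyl group placed on adenosines of messenger RNA by a complex of writer proteins, removed by erasers and bound by readers that change splicing, translation or decay of the transcript. The epididymis is the coiled duct in which sperm leaving the testis mature, and its wall is lined by principal, basal, clear and narrow cells within a sheath of smooth muscle. Caput, the head, receives sperm from the testis, and corpus, the body, follows it.

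The authors' deposited table gives 1 fold, 1 p-value and 1 adjusted p-value per peak, with no value per library. No spread between libraries can therefore be given, and the depth behind a peak is unknown. No source used here says whether the folds take the input libraries into account. A difference in m6A is thus not separated from a difference in the amount of transcript. Because the tissue is bulk, fewer cells of a type and less RNA per cell cannot be told apart either. Log2 folds are given as corpus over caput, so a positive value is higher in the corpus. The tissue label was checked against genes of the duct. Peaks were present in PAX2, Pax8 and Hnf4a, transcription factors of the duct, and in CLU, CRISP1 and ELSPBP1, secreted proteins of principal cells. The list of duct transcription factors held 30 symbols, with a peak in 19 genes. That of principal cell secretory proteins held 47 symbols, with a peak in only 8 genes, so most of its members had no peak. The presence of a peak is not a level of expression.

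At an adjusted p under 0.05, 419 peaks were called per the authors' deposited table, or 2.98% of all peaks. They comprised 158 higher peaks (1.12%) and 261 lower peaks (1.86%), and they lay in 368 genes (4.62% of genes). A higher peak was found in 145 genes (1.82%) and a lower peak in 235 genes (2.95%). Most differences were small. The median absolute log2 fold was 0.20 over all peaks and 0.67 over called peaks per the authors' deposited table. Of the 376 peaks that differed at least 2-fold, 101 were called (26.9%). In contrast, 48 called peaks had an absolute log2 fold under 0.25 and 18 under 0.1. For those 18 the direction rests on the sign of a fold close to 1. Called peaks were spread over the genome: on the 30 chromosomes with at least 100 peaks, between 1.47% and 5.02% of peaks were called.

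**Figure D1:**
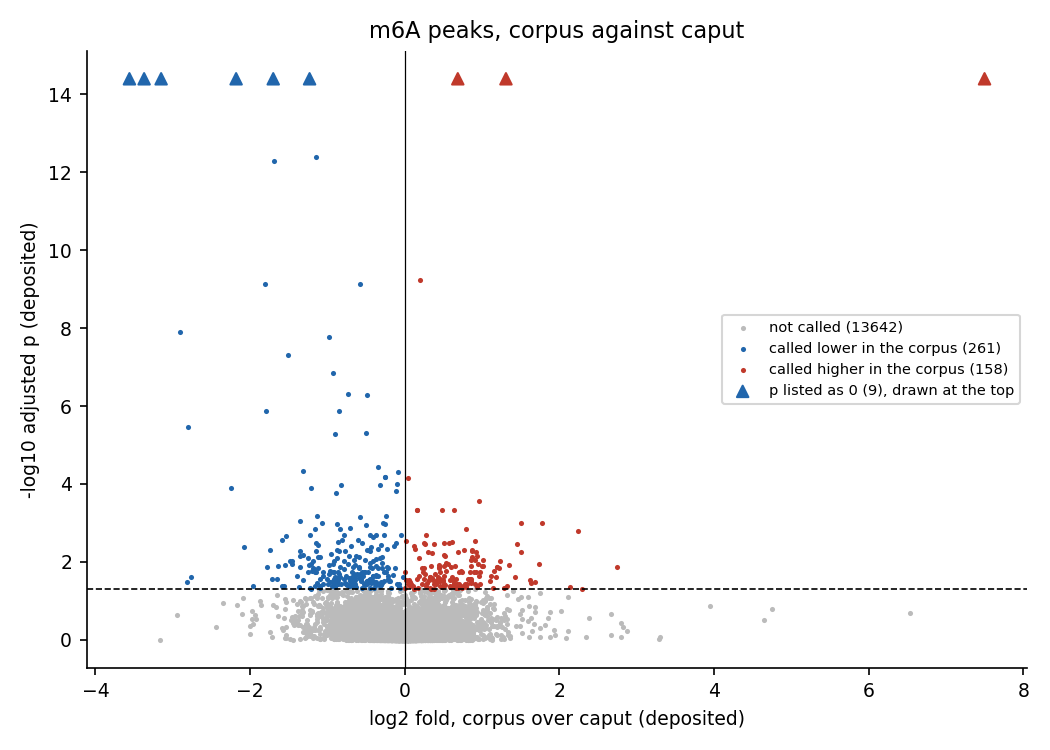
Each point is 1 of 14061 peaks, with its deposited log2 fold (corpus over caput) on the x axis and the negative log10 of its deposited adjusted p on the y axis. The dashed line marks an adjusted p of 0.05, the 261 lower and 158 higher peaks lie above it, and triangles at the top are 9 peaks whose p is listed as 0, so their height is not a measurement.

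Peaks of sperm and spermatid genes were among those with the lowest folds. A sperm and spermatid list of 56 symbols had 22 peaks in 13 genes, of which 9 were called lower and 1 higher per the authors' deposited table, or 45.5% called. Of all peaks, 2.98% were called, 1.86% lower and 1.12% higher. The 1 higher call of the list, in ZNF474, had a log2 fold of 0.04, which gives no readable direction. The list's median log2 fold was -0.16, against -0.02 for all peaks. Several of its symbols were chosen because earlier results of these data had shown them to be low in the corpus, so its count is not independent evidence of its direction. The lowest called were SEL1L2, a relative of an adaptor of protein degradation at the endoplasmic reticulum (-3.37), CYLC1, a cylicin of the sperm head (-3.15), and Tsks, a substrate of testis-specific kinases (-2.91), all per the authors' deposited table. For the SEL1L2 and CYLC1 peaks the p is listed as 0. ZNF474 stood at -2.18 and SPZ1, a transcription factor of the testis, at -1.23, both with a p listed as 0, and TTC16 at -1.15 (adjusted p = 4.0e-13) per the authors' deposited table. CCIN, which encodes the sperm head protein calicin, had a lower peak at -0.24 (adjusted p = 0.00066) per the authors' deposited table. It lies on chromosome 7 from 58047156 to 58047843 on the minus strand and is 688 bases long. Other peaks of the same genes had positive folds. A further CYLC1 peak had a log2 fold of 2.87, a further CCIN peak 0.94 and a further Tsks peak 0.76 per the authors' deposited table, and none of these 3 was called.

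Peaks of other germ cell genes were also called lower. CREM, a cAMP-responsive regulator that switches on spermatid genes, had a lower peak at -2.25 (adjusted p = 1.3e-04) per the authors' deposited table. This peak joins 149 bases within a span on chromosome 12 from 7585987 to 7590789, minus strand. MROH2B had a lower peak at -1.70, with a p listed as 0 per the authors' deposited table, on chromosome 23 from 50067867 to 50069186, minus strand. The further genes in this paragraph lie outside the naming rule and were chosen after their values were seen. CAPN11, a testis calpain, had a log2 fold of -1.35, and SPESP1, a protein of the sperm equatorial segment, -0.90 per the authors' deposited table. TAF7L, a germ cell relative of a general transcription factor subunit, stood at -0.84 and TEX14, a protein of the bridges between germ cells, at -0.45 per the authors' deposited table. A peak of MND1, a factor of meiotic recombination, had -1.20 per the authors' deposited table. In the ontology term spermatogenesis, 9 of 221 peaks (4.07%) were called lower and 1 higher, the latter in SPATA2 (0.79). In the term acrosomal vesicle, 4 of 38 peaks (10.5%) were called lower and 0 higher. Of all peaks, 1.86% were called lower and 1.12% higher. The median log2 folds of these terms were -0.0028 and -0.12, beside -0.02 for all peaks.

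Genes of cilia, the axoneme-based organelles shared by sperm tails and multiciliated cells, had calls in both directions. The cilium and axoneme list had 42 peaks in 27 genes, with 4 called lower and 2 higher and a median log2 fold of -0.20. This is 14.3% called, beside 2.98% of all peaks (1.86% lower and 1.12% higher). At an unadjusted p under 0.05, which 16.4% of all peaks passed, 16 of its peaks were lower and 5 higher. CFAP100, an axonemal protein, had a lower peak at -1.22 (adjusted p = 0.047) per the authors' deposited table, on chromosome 22 from 96222 to 96442, minus strand. TEKT1, a tektin inside axonemal microtubules, had 2 lower peaks, at -1.48 and -0.45 per the authors' deposited table. TEKT3, another tektin, was called (adjusted p = 0.019) at a log2 fold of 0.0012 per the authors' deposited table, which gives no readable direction. The radial spoke gene RSPH4A had the higher peak of the list at 1.22 per the authors' deposited table. In the ontology term motile cilium, 3 of 65 peaks were lower and 3 higher, or 9.23% called, beside 2.98% of all peaks. Its higher peaks were in RSPH4A, in Ift88, a carrier of cargo along cilia (0.68), and in IQCG (0.16), per the authors' deposited table. Transcripts of sperm in the lumen and of any ciliated cells in the sample cannot be told apart in bulk tissue. Beside these calls, 9 of 22 peaks of the sperm and spermatid list were called lower, and their part in the cilium result was not tested.

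Clear and narrow cells acidify the lumen with a proton pump at their surface. Their list had 21 peaks in 13 genes, with 5 called lower (1.86% of all peaks were), 0 higher and a median log2 fold of -0.26. At an unadjusted p under 0.05, which 16.4% of all peaks passed, 6 were lower and 1 higher. The lower peaks were in ATP6V1B1 and ATP6V1G3, pump subunits, FOXI1 and DMRT2, transcription factors, and CA12, a carbonic anhydrase. CA12 also belongs to the ion and water transport list, where CFTR, a chloride and bicarbonate channel, was the other gene with a lower peak. Pump subunits that every cell uses had 7 peaks in 5 genes, with 0 called and 0 at an unadjusted p under 0.05 per the authors' deposited table. Their log2 folds ranged from -0.50 in ATP6V0A2 to 0.11 in ATP6V1D per the authors' deposited table. The difference between these lists was not tested.

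Regulators of the duct had 1 or 2 calls per list, all lower, where 2.98% of all peaks were called and 1.86% called lower. Counts of 1 or 2 in lists of this size are near the background. Among transcription factors of the duct, 2 of 38 peaks (5.26%) were called lower and 0 higher, with a median log2 fold of -0.09. Hnf4a had a single peak, of 1032 bases on chromosome 12 from 68249768 to 68250799, lower at -0.445 (adjusted p = 0.0021) per the authors' deposited table. HOXB2, a gene of body axis position, had the 1 called peak (4%) among 25 HOX peaks, lower at -0.48 (adjusted p = 0.0049) per the authors' deposited table. The list of signalling genes of the initial segment, the most proximal part of the caput, had 26 peaks. Of these, 1 was called (3.85%), a lower peak of MAP2K1. This gene encodes the kinase that activates ERK, and its peak on chromosome 11 from 11014595 to 11014788 stood at -1.96 (adjusted p = 0.043) per the authors' deposited table. Its other peak stood at 0.33 and was not called, and the list's median log2 fold was 0.11. LEF1, a transcription factor of Wnt signalling chosen after its values were seen, had lower peaks at -1.32 and -1.23 per the authors' deposited table.

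Genes of other kinds were also among the lowest folds and lowest p-values. PDZD2, a protein with PDZ domains, had a lower peak at -2.80 (adjusted p = 3.4e-06) on chromosome 23 from 40856182 to 40856480 per the authors' deposited table. USH1C, which encodes the scaffold harmonin, stood at -2.76 (adjusted p = 0.025) on chromosome 13 from 51799566 to 51802571 per the authors' deposited table. RWDD1 stood at -2.82 with an adjusted p of 0.032 per the authors' deposited table. The longest peaks in this group had smaller folds. HSPA4L, a chaperone related to the large heat shock proteins, had a peak of 986 bases lower at -0.58 (adjusted p = 7.2e-10) per the authors' deposited table. CCDC198 had a peak of 493 bases lower at -1.81 (adjusted p = 7.4e-10) per the authors' deposited table. HSPA6 was the other heat shock gene with a lower peak, and the median log2 fold of the 29 heat shock peaks was 0.02.

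Among the higher peaks, SLC16A1, the transporter of lactate and other monocarboxylates, had 2, at 1.50 (adjusted p = 0.001) and 0.96 (adjusted p = 2.8e-04) per the authors' deposited table. They lie on chromosome 3, minus strand, from 42322306 to 42322604 and from 42319137 to 42321910. The other SLC16A1 peaks stood at 0.39 and 0.07 and were not called, so all 4 were positive. No other gene of the metabolite transport list, which had 16 peaks in 9 genes, had a called peak.

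STAT3, the transcription factor downstream of interleukin 6 type cytokines, had a higher peak at 1.68 (adjusted p = 0.033) per the authors' deposited table. PIAS2, a SUMO ligase that binds activated STAT proteins, had one at 1.63 (adjusted p = 0.034) per the authors' deposited table. Both peaks are short, 151 and 200 bases, and spliced, with spans on chromosome 19 from 23631154 to 23632574 and on chromosome 21 from 44042240 to 44050651. In the JAK-STAT pathway 5 of 126 peaks (3.97%) were called higher and 0 lower, where 1.12% of all peaks were higher and 2.98% called, among them CREBBP, a histone acetyltransferase (0.85), and IL7, a lymphocyte growth factor (0.50), per the authors' deposited table. The pathway was singled out after its values were seen, and its median log2 fold was -0.03. OGT and Oga, the enzymes that add and remove N-acetylglucosamine on intracellular proteins, both had a higher peak, at 0.53 and 0.59 per the authors' deposited table. They too were chosen after their values were seen.

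Among called peaks with a symbol, the highest fold was that of NSMCE1, a subunit of the SMC5-SMC6 genome maintenance complex, at 7.50 with a p listed as 0 per the authors' deposited table. Its peak of 149 bases on chromosome 26 from 19909288 to 19909436 held 0 candidate adenosines in the caput and 0 in the corpus list. NRG3, a neuregulin growth factor, followed at 2.75 (adjusted p = 0.014) and GID8, a subunit of a ubiquitin ligase complex, at 2.24 (adjusted p = 0.0017) per the authors' deposited table. ARMC6 (1.77), HEATR5B (1.62) and Cmya5, a muscle protein (1.50), completed the 10 highest folds with MMRN1, described below, per the authors' deposited table. NOP14, a ribosome assembly factor, had a longer peak of 693 bases that was higher by 0.64 (adjusted p = 4.8e-04) per the authors' deposited table. Macroh2a1, a histone variant, was called at an adjusted p of 4.8e-04 with a log2 fold of 0.16 per the authors' deposited table. KLF6, a zinc finger factor of the early response, had a higher peak at 0.815 (adjusted p = 0.027) and was the 1 called among 25 peaks of immediate early genes per the authors' deposited table.

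Several lists had no call, and at 2.98% of all peaks called, 0 in lists of this size is near the background. The counts at an unadjusted p under 0.05 stand beside 16.4% of all peaks that passed it. Smooth muscle genes had 38 peaks in 18 genes with 0 called, 1 at an unadjusted p under 0.05, and log2 folds from -0.39 in KCNMB1 to 0.25 in SYNM per the authors' deposited table. Fibroblast and matrix genes had 52 peaks with 0 called and 8 at an unadjusted p under 0.05, of which 7 were higher. Basal cell genes had 15 peaks with 0 called. Of these, 12 were positive (47.5% of all peaks were), the median log2 fold was 0.19, and 3 were higher and 1 lower at an unadjusted p under 0.05. Endothelial genes had 4 higher and 2 lower peaks among 31, with 5 of these 6 in MMRN1 and the other in EMCN. Junction genes had 2 higher peaks among 56, in CGN and in PKP2, a desmosomal plakophilin (0.59, adjusted p = 0.043 per the authors' deposited table). The CGN call had a log2 fold of 0.05 (adjusted p = 0.038) per the authors' deposited table, which gives no readable direction. Of the genes of protein secretion, Pdia6, a disulfide isomerase, was called at a log2 fold of 0.07 per the authors' deposited table and the other 31 peaks were not called. Among leukocyte genes 1 of 21 peaks was called. The 0 calls of other lists were 39 peaks of proteases and their inhibitors (2 at an unadjusted p under 0.05), 12 of beta-defensins and antimicrobials (2), 20 of antioxidant genes (5), 21 of steroid and lipid genes (4), 20 of m6A writers (2), 4 of erasers (0), 25 of readers (3), 13 of germline RNA binding genes (3), 34 of vesicle and small RNA genes (3) and 7 of nerve and glia (0). Over all 30 lists, 46 of 724 peaks were called (14 higher and 32 lower, 6.35%).

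**Figure D2:**
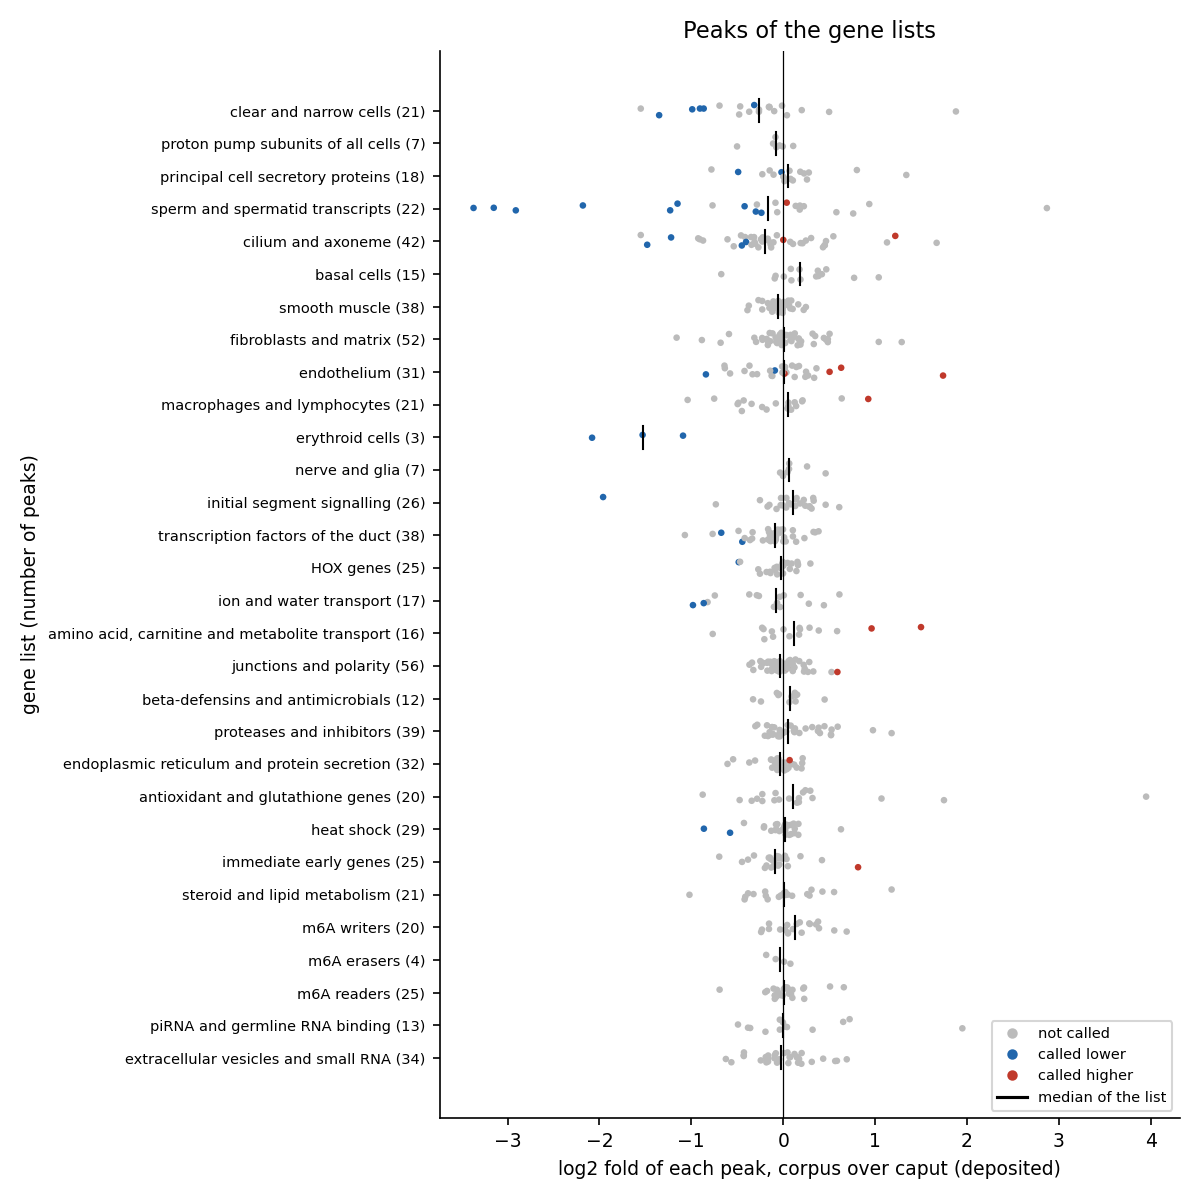
Each row is a gene list with its number of peaks, each point is the deposited log2 fold of 1 peak (corpus over caput), and the black bar is the list's median. Blue (lower) and red (higher) points are called, and blue points lie farthest left in the sperm and spermatid list, while smooth muscle has 38 peaks near 0 and no coloured point.

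Folds were smaller in longer peaks, and the longest peaks had the highest share of calls. Length is as listed per the authors' deposited table. Where it was shorter than the span from first to last base, it was read as the summed length of blocks with introns left out, and such peaks are called spliced here. It ran from 135 to 4480 bases with a median of 251, and from 143 to 2327 with a median of 299 for called peaks. The medians were 299.5 for higher and 299 for lower peaks. Among the 1242 peaks under 150 bases, 2.42% were called and the median absolute log2 fold was 0.27. From 150 up to 250 bases these values were 2.43% and 0.26 over 5230 peaks, from 250 up to 500 bases 3.46% and 0.18 over 4823 peaks, and from 500 up to 1000 bases 2.92% and 0.13 over 2195 peaks. Among the 571 peaks of 1000 bases or more, 5.43% were called and the median absolute log2 fold was 0.10.

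The spread of the log2 folds within a length class fell with length, from a standard deviation across peaks of 0.59 under 150 bases to 0.17 at 1000 bases or more. Folds of at least 2 were found in 5.48% of peaks in the shortest class and in 0.175% in the longest. Longer peaks hold more fragments at a given level, but no count per peak was used, so the part of depth in these shares was not tested. The direction also varied. Lower calls outnumbered higher ones by 46 to 18 from 500 up to 1000 bases and by 16 to 15 at 1000 bases or more.

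**Figure D3:**
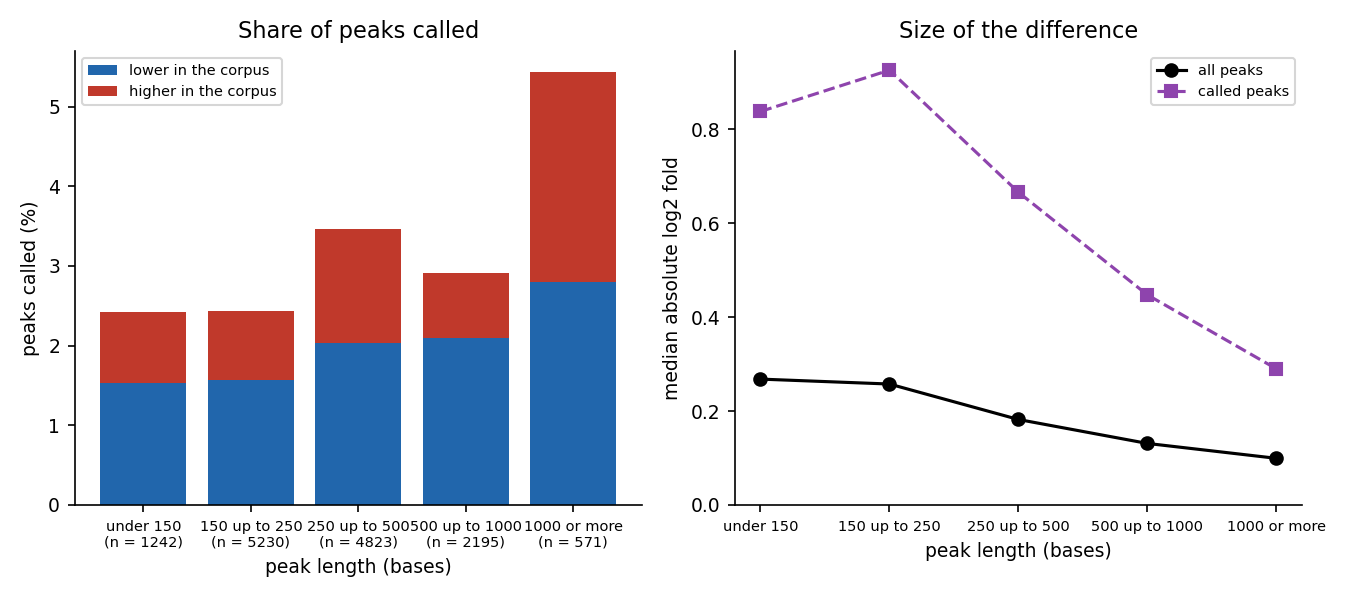
The left panel shows the percent of peaks called in each length class, split into lower (blue) and higher (red), and the right panel the median absolute log2 fold of all peaks (circles) and of called peaks (squares). The share called is highest, 5.43%, where the median fold of all peaks is smallest, 0.10.

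Of the 31 called peaks of 1000 bases or more, 26 had an absolute log2 fold under 0.5. Those named next were chosen after their values were seen, apart from Hnf4a, MAP1A and C22orf46. FLRT3, a membrane protein of cell adhesion and growth factor signalling, was lowest at -0.78, and CEP112, a centrosomal protein, stood at -0.66 per the authors' deposited table. The longest called peak, 2327 bases in ZBTB38, a zinc finger protein, was lower at -0.15 per the authors' deposited table. HIVEP2, also a zinc finger protein, was called with a log2 fold of 0.01 over 2044 bases per the authors' deposited table. The 1 long peak past 2-fold was that of C22orf46 at 1.31 per the authors' deposited table. The 5 longest peaks of all, in ANKRD11 (4480 bases), GOLGB1 (4449), ZC3H13 (4431), YLPM1 (4100) and MYH10 (3688), were not called, and their log2 folds lay between -0.13 and 0.05 per the authors' deposited table. ZC3H13 itself encodes a subunit of the m6A writer complex.

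Spliced peaks made up 58.1% of all peaks. Of the 8172 spliced peaks 3.05% were called, and of the 5889 others 2.89%. The coordinates of a spliced peak span a median of 3865.5 bases. Spans of 190 peaks overlapped a span on the opposite strand, and 5 of these were called.

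Genes carried 1 to 19 peaks. A single peak was found in 4469 genes, 2 in 2131, 3 in 831, 4 in 292 and 5 or more in 250. The share of genes with a called peak was 2.77% with 1 peak, 5.82% with 2, 7.70% with 3, 8.90% with 4 and 12.0% with 5 or more. The share of peaks called stayed near the 2.98% of all peaks, between 2.70% and 3.14% in these classes. Genes with a called peak thus had more peaks than the others: 33.7% of them had a single peak, against 57.1% of genes without a call. Lower calls outnumbered higher ones by 83 to 41 in genes with a single peak and stood at 20 to 21 in genes with 5 or more. Peaks of the same gene had opposite signs in 48.3% of genes with 2 peaks and in 94.8% of genes with 5 or more, called or not. Of all peaks, 47.5% had a positive log2 fold, and at such a share mixed signs become common as peaks per gene increase. Whether mixed signs differed from that background was not tested. The median distance between the highest and the lowest log2 fold of a gene was 0.26 with 2 peaks and 0.79 with 5 or more.

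The calls in the 5 genes with the most peaks lay mainly in PCDHGC5. Syne2, a nesprin that ties the nucleus to the cytoskeleton, had 19 peaks with log2 folds from -0.47 to 0.56 and 0 called per the authors' deposited table. Macf1, a linker of microtubules and actin, named 2 genes with 19 and 17 peaks. In the first of these a peak on chromosome 24 from 33343472 to 33350837 was lower at -0.67 (adjusted p = 0.036), and in the second 0 were called, per the authors' deposited table. KMT2C, a histone methyltransferase, had 13 peaks and 0 called. PCDHGC5, a gene of the gamma protocadherin cluster of cell adhesion, had 15 peaks and 4 called.

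Of the 29 genes with at least 2 calls, 12 had only lower calls, 5 had only higher calls and 12 had calls in opposite directions. Opposite calls formed 19 pairs, of which 10 lay within 1000 bases of each other, with a median gap of 975 bases. The pairs in ZNF474, C9orf131, GCNT2, LRRC37A3 and MMRN1 each include a fold under 0.1 in size. For these pairs the opposite direction rests on the sign of a fold close to 1. In PCDHGC5, peaks on chromosome 8 at 57000280 to 57000530 (-1.13), 57000630 to 57001379 (-0.55) and 57008036 to 57008885 (-0.58) were lower per the authors' deposited table. A PCDHGC5 peak at the other end, from 57116356 to 57116655, was higher by 1.23 (adjusted p = 0.0098) per the authors' deposited table. The gamma protocadherin cluster uses alternative first exons, and its members share their last exons. Whether these peaks belong to 1 transcript was not tested. MMRN1, the extracellular glycoprotein multimerin 1, had 5 of 6 peaks called per the authors' deposited table. On chromosome 6, the peak from 91002502 to 91002652 was higher by 1.74 (adjusted p = 0.011), and peaks from 90949027 and from 91002902 were higher by 0.63 and 0.505 per the authors' deposited table. Another MMRN1 peak was called higher at 0.01, and the longest, of 749 bases from 91003401 to 91004149, was called lower at -0.09 (adjusted p = 4.9e-05), per the authors' deposited table. The MMRN1 calls at 0.01 and -0.09 give no readable direction.

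Pairs with sizeable folds both ways were found in 5 other genes with a symbol. C22orf46 had a peak of 401 bases lower at -1.79 (adjusted p = 1.4e-06) and, 975 bases on, a peak of 1198 bases higher by 1.31 with a p listed as 0 per the authors' deposited table. RGSL1, a member of the family of G protein signalling regulators, had peaks at 1.14 and -0.92, and PLEKHA4, a protein with a pleckstrin homology domain, at 1.20 and -0.84 per the authors' deposited table. EFNB1, an ephrin ligand of cell contact, had peaks at 0.495 and -0.63 that were 199 bases apart per the authors' deposited table. MAP1A, a protein of microtubules, had a peak of 1600 bases lower at -0.31 and, 799 bases on, a peak of 401 bases higher by 0.62 per the authors' deposited table, while its other 6 peaks were not called. In ZNF474 (-2.18 and 0.04), LRRC37A3 (-0.52 and 0.07), C9orf131 (0.19 and -0.08) and GCNT2 (0.43, 0.18 and -0.05), at least 1 of the opposite folds was below 0.1 in size per the authors' deposited table. The remaining gene had no symbol.

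Other genes had at least 3 calls in 1 direction. The 3 peaks of SPHKAP, an anchor of protein kinase A, were lower at -1.15, -1.12 and -0.14 per the authors' deposited table. PGS1, an enzyme of cardiolipin synthesis, had 3 of 5 peaks called higher, at 0.645, 0.53 and 0.12 per the authors' deposited table, and its other 2 peaks were positive too. HEMGN, a nuclear protein of blood cell precursors, had all 3 of its peaks called lower, at -2.08, -1.53 and -1.09 per the authors' deposited table. The erythroid list held 14 symbols, and HEMGN was its 1 gene with a peak.

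**Figure D4:**
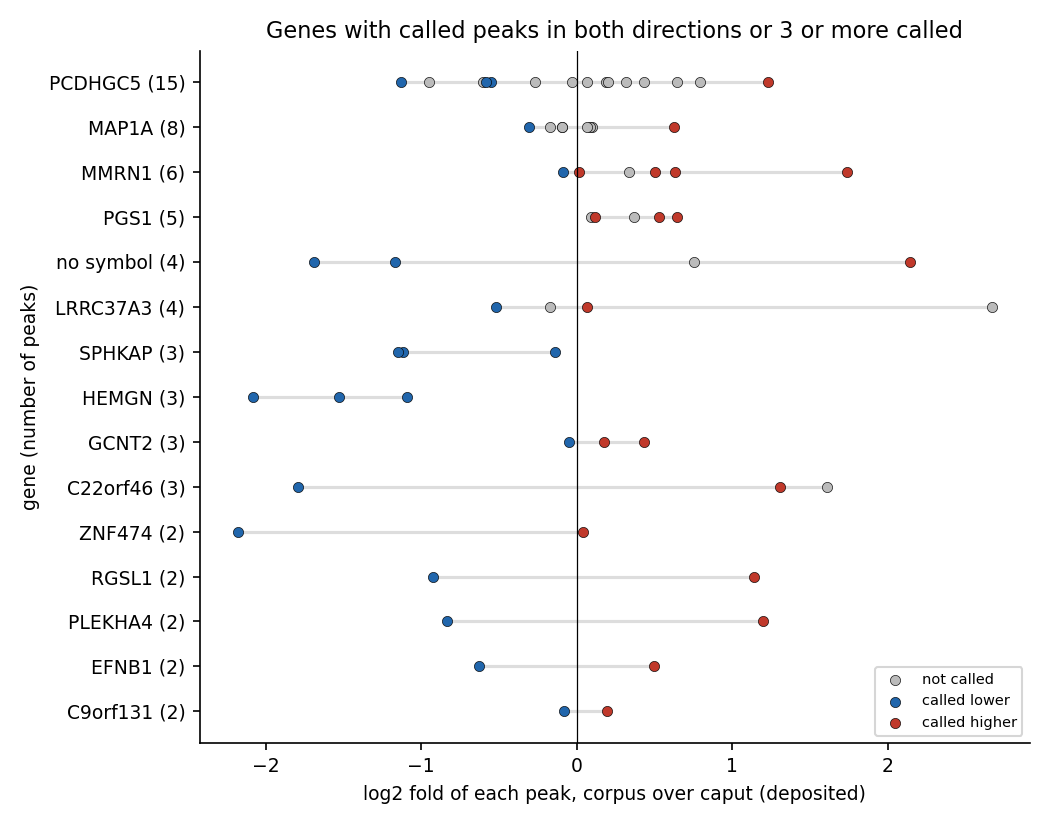
Each row is a gene with calls in both directions or with at least 3 calls, each point is the deposited log2 fold of 1 of its peaks, and the grey line spans them. MMRN1 has 5 coloured points among 6, HEMGN and SPHKAP lie wholly on the lower side, and PCDHGC5 spans from -1.13 to 1.23.

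Candidate adenosines were compared with the calls. For each region the authors list single adenosines with a prediction score, and 86.6% of the 14061 peaks held at least 1 candidate of the caput or corpus list within their span. Candidates of both lists were present in 61.5% of peaks, of the caput list alone in 13.8%, of the corpus list alone in 11.3% and of neither in 13.4%. The lists come from the same libraries as the comparison, so they are no second measurement. Calls and lists mostly went the same way. Of 261 lower peaks, 138 had caput candidates alone, 5 had corpus candidates alone, 79 had both and 39 had neither. Of 158 higher peaks, 62 had corpus candidates alone, 12 caput candidates alone, 64 both and 20 neither. The share called was 7.74% with caput candidates alone, 4.23% with corpus candidates alone, 3.13% with neither and 1.65% with both. The median log2 fold was -0.34 for peaks with caput candidates alone and 0.30 for those with corpus candidates alone.

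Candidates that the authors class as m6A sites were held by similar shares of called and of all peaks, a difference that was not tested. At least 1 such site in either list was held by 52.7% of called peaks and 50.8% of all peaks. A site of the very high confidence class was held by 9.07% of called and 9.33% of all peaks. Among the strongest lower peaks, those of SEL1L2 and CYLC1 held 4 and 6 caput candidates and 0 corpus candidates, and none of these was classed as an m6A site. The TTC16 peak held 24 caput candidates with 4 classed, and 0 in the corpus list. The higher SLC16A1 peaks held 3 and 11 corpus candidates and 0 in the caput list, and 1 of the 11 was classed. The peaks of MAP2K1, USH1C and MROH2B held 0 candidates in either list.

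Some calls went against the lists. The 12 higher peaks with caput candidates alone lay in 10 genes, with a median log2 fold of 0.31 per the authors' deposited table. The long peaks among them were those of CCDC110 (44 caput candidates, log2 fold 0.69), C22orf46 (43, 1.31) and C9orf131 (27, 0.19) per the authors' deposited table, and each held 0 corpus candidates. RSPH4A (1.22), RGSL1 (1.14) and USP11, a ubiquitin protease (0.59), were of the same kind per the authors' deposited table. The 5 lower peaks with corpus candidates alone had log2 folds from -0.90 in Yipf2 to -0.09 in MMRN1 per the authors' deposited table, with NACA, HSCB and a gene without a symbol between them. These genes were chosen after their values were seen, apart from those named above. For the long CCDC110, C22orf46 and C9orf131 peaks the list and the fold point in opposite directions, and which of the 2 is right was not tested.

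**Figure D5:**
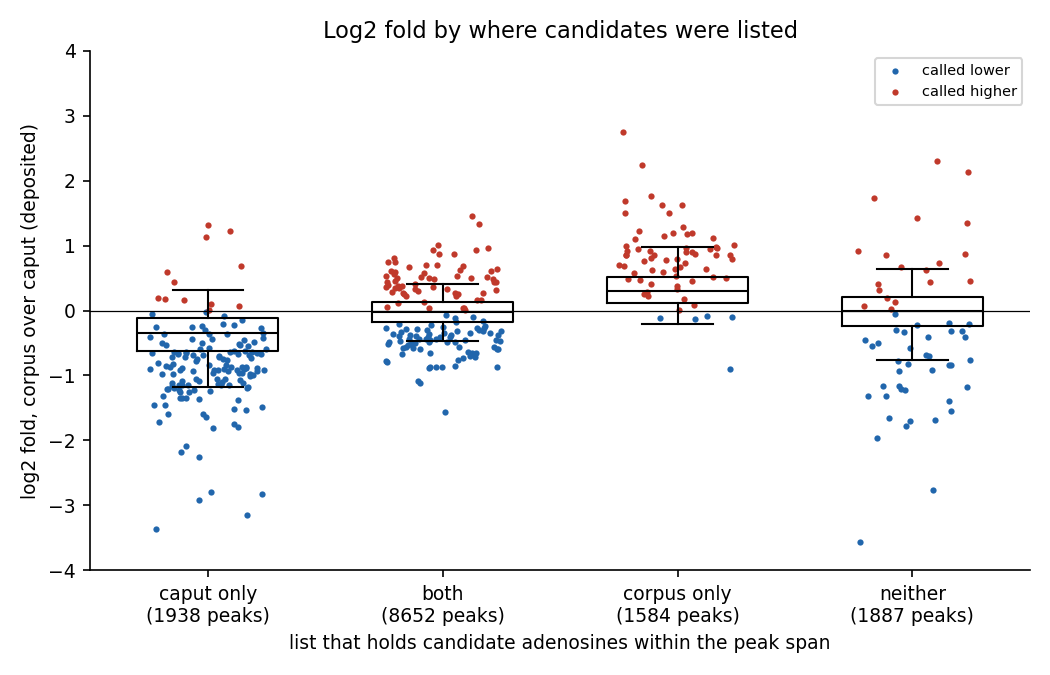
Boxes give the median and quartiles and whiskers the 5th and 95th percentiles of the deposited log2 fold (corpus over caput) of all peaks, grouped by the list that holds candidates within their span, and points are called peaks. The medians are -0.34 (caput only), -0.02 (both), 0.30 (corpus only) and 0.00 (neither), and the NSMCE1 peak at 7.50 in the last group lies beyond the axis.

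Broad ontology terms were set beside the 2.98% of all peaks called. Of the 50 terms chosen, 49 had peaks, and in the 36 terms with at least 50 peaks the share called ran from 0.676% (angiogenesis) to 9.23% (motile cilium). Their median log2 folds lay between -0.09 and 0.09. RNA binding genes had 1020 peaks with 7 higher and 8 lower (1.47%), and mRNA processing genes 219 peaks with 1 higher and 2 lower. RPL7, a ribosomal protein, had the 1 called peak among 88 ribosome peaks, at -1.19 per the authors' deposited table, while RPL7A, which is outside this term, was called higher at 0.27 (adjusted p = 0.0034) and was named after its value was seen. Ribosomal protein genes have many near-identical copies. Cell cycle genes had 287 peaks with 0 higher and 5 lower, and transcription factors of RNA polymerase II had 870 peaks with 9 higher and 15 lower. Cell adhesion genes had 260 peaks with 8 higher and 7 lower, of which 9 lay in MMRN1 and PCDHGC5. Peaks of the lysosome (130) and of the lumen of the endoplasmic reticulum (120) had 1 call each.

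The cauda gives further values for the same peaks, but its comparisons share the caput or corpus libraries with the one described here, so they are set side by side only. Of all peaks in the authors' deposited tables, 2.27% were called for cauda over caput and 1.96% for cauda over corpus. The PDZD2 peak stood at -2.80 for corpus over caput and -3.64 for cauda over caput (adjusted p = 2.1e-07), and that of MAP2K1 at -1.96 and -3.07 (adjusted p = 0.0066), per the authors' deposited tables. For CFTR the values were -0.98 and -0.19, and the latter was not called, per the authors' deposited tables. The SLC16A1 peaks stood at 1.50 and 0.96 for corpus over caput and at -1.72 (adjusted p = 7.8e-05) and -1.0 (adjusted p = 3.0e-06) for cauda over corpus per the authors' deposited tables. PKP2 stood at 0.59 and -0.72 (adjusted p = 0.0042) in the same 2 comparisons of the authors' deposited tables. The RSPH4A peak stood at 1.22 for corpus over caput and at -0.58 for cauda over caput (adjusted p = 0.0017) per the authors' deposited tables. All of these are peaks with the same coordinates in both tables, and they were chosen after their values were seen. Other such peaks changed sign between corpus over caput and cauda over caput. RWDD1 stood at -2.82 and 1.69 and CCDC110 at 0.69 and -0.04, with the latter values not called, per the authors' deposited tables. A GCNT2 peak stood at 0.43 and -1.14, the latter with an adjusted p listed as 0, per the authors' deposited tables.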

How the data were processed

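Poly(A) RNA was fragmented, enriched with an m6A antibody and sequenced as pairs, per the labels' protocols. The submitters' processing notes name Trimmomatic, HISAT2 and deepTools with no version. Not given in the sources used here are the genome build, the peak caller, the site predictor and the differential test. Per the file headers, the authors' deposited comparison table gives for each peak a p-value, an adjusted p-value, the ratio (fold) of the regions and the log2 of this ratio. The p-values were used as listed. Per the file headers, the deposited candidate lists give a prediction score and its class for each adenosine. Repeated positions were counted once.

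With pandas 2.3.3, peaks were joined to symbols, ontology terms and pathways by gene identifier, and candidates were counted within peak spans, introns included and without regard to strand, which the lists do not give. A peak was called at a deposited adjusted p under 0.05. No test was run here. The sign of the fold was checked on peaks with candidates in 1 list. For 9 called peaks a p is listed as 0, which may be a placeholder. Coordinates are counted from 1. In the table of expression values 9 columns match no label and were not used. Motifs were not searched, since the lists hold no sequence.

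Named peaks were the 10 highest and 10 lowest log2 folds among called peaks with a symbol, the 8 lowest p in each direction, every gene with at least 3 calls or calls in both directions, every called peak of a gene list (apart from items not reported here), the 5 longest peaks and the 5 genes with the most peaks. The members and lists were chosen with earlier results of these data known.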

Additional observations from a re-analysis of the deposited data

How the results depend on the processing

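At an unadjusted p under 0.05, 2313 peaks passed (1014 higher, 1299 lower). At an adjusted p under 0.01, 141 were called (43 higher, 98 lower). At an adjusted p under 0.05, 101 (29 and 72) were called with a 2-fold limit added, and 170 (61 and 109) without spliced peaks. The count stayed within 1.5 times of 419 without the peaks whose p is listed as 0 (410), in genes with a symbol (393) and with 1 peak per gene (368). Measured from first to last base, the median length was 1418 for called peaks (299 by summed length), and the called median exceeded that of all peaks by 431 bases (48 by summed length). At an unadjusted p under 0.05, 62.7% of genes without a call had a single peak. Counting only candidates classed as m6A sites, 36.0% of lower peaks had more in the caput, against 72.0% with all candidates, and 29.1% of higher peaks had more in the corpus, against 63.3%. No classed site in either list was held by 48.7% of lower and 44.9% of higher peaks, which count for neither region. More classed sites in the corpus were held by 1.15% of lower peaks, and more in the caput by 7.59% of higher peaks. At an unadjusted p under 0.05, a setting chosen after seeing the data, the gene lists had 137 passing peaks (79 lower, 58 higher). Of the 94 called peaks named by the rule, 44 lost the call at an adjusted p under 0.01, also chosen after seeing the data. No paired analysis was possible because the comparison table holds no values per library, and for the same reason no library could be left out. Counting candidates inside the blocks of spliced peaks was not run, since the block positions were not used here. Depth per peak is unknown, so it cannot be said which differences were too small to detect.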

Other observations

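Further called peaks fall outside the lists and the naming rule and were chosen after their values were seen. Among higher peaks, HP, which encodes the haemoglobin-binding protein haptoglobin, stood at 1.33, XDH, the xanthine dehydrogenase, at 0.91, and FABP4, a fatty acid carrier, at 0.46 per the authors' deposited table. SENP6, a protease that removes SUMO from proteins, had a higher peak at 1.15 per the authors' deposited table. TRIM13, a ubiquitin ligase of the endoplasmic reticulum, had 2 higher peaks, at 0.97 and 0.52 per the authors' deposited table.

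Among lower peaks, those of centrosome proteins, singled out with no list fixed and no test, were in CEP120 (-1.12), CEP126 (-0.87 and -0.66), CEP57L1 (-0.93) and SDCCAG8 (-0.59) per the authors' deposited table. MAML3, a Notch coactivator, stood at -1.14 and PBX3, a homeobox factor, at -1.06 per the authors' deposited table. GJB7, a gap junction connexin, had a lower peak at -1.25 per the authors' deposited table.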
